A study of Homo sapiens with 8 samples.

Results

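Translation efficiency, the number of ribosome footprints relative to mRNA, was compared in T3M4, an established line of human pancreatic cancer cells, between an arm with a guide RNA targeting METTL13 (sgMETTL13) and an arm with a control guide (sgControl). For each gene the change was the log2 difference in footprints (sgMETTL13 minus sgControl) less the log2 difference in mRNA, with each assay normalised on its own. All genes expressed in both assays were taken, which gave 10446 of the 14668 gene symbols in the count table. The 4 groups were sgControl RNA-seq, sgMETTL13 RNA-seq, sgControl ribosome profiling and sgMETTL13 ribosome profiling, with 2 libraries each and 8 in all. Cells of every group had spent 18 h in serum-free medium and 2 h in 10% FBS before lysis. RNA-seq measured poly(A) RNA, and ribosome profiling captured nuclease-treated ribosomes on beads carrying a puromycin analog. The labels name neither the number of clones nor whether replicates were separate cultures, and the spread between libraries that enters the p-values may be technical.

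METTL13 methylates eEF1A, the elongation factor that brings aminoacyl-tRNA to the ribosome, at its N terminus and at a lysine. A footprint marks 1 ribosome on an mRNA, so footprints per mRNA rise when more ribosomes occupy each copy, whether because they start more often or because they move more slowly. mRNAs of ribosomal proteins and of many translation factors begin with a run of pyrimidines at the cap (the 5′ terminal oligopyrimidine, or TOP, motif), through which growth and nutrient signals set their translation. Serum return after starvation, as used here for all groups, is a condition in which such mRNAs are known to move onto ribosomes.

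RNA-seq libraries held 20860953 to 48353722 counts and footprint libraries 6063885 to 9837253. Replicates differed from each other by an SD over genes of 0.925 (log2) in sgMETTL13 RNA-seq, against 0.391 in sgControl RNA-seq, 0.364 in sgControl footprints and 0.309 in sgMETTL13 footprints. The sgMETTL13 RNA-seq libraries therefore stood apart from each other, and the list medians and trends below are given without each where that turned a sign or moved a value by over 1.5 times. Epithelial markers were present in RNA-seq (6 of 6, from 28.2 to 1840 counts per 1000000, CPM). Of the markers of other cell types, COL1A1 (18.3 to 32.1 CPM), CD68 (19.9 to 49 CPM) and LUM (0.852 to 4.72 CPM) were detected, while PTPRC, LYZ, PDGFRB, COL1A2 and the 3 endothelial markers were below 1 CPM in every RNA library.

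METTL13 lies on chromosome 1 at 171781660 to 171797716 (GRCh38.p14). Its mRNA level was 89.7 and 72.1 CPM in sgControl replicates 1 and 2 and 24.7 and 35.5 in sgMETTL13. Its footprint level was 65.1 and 57.8 CPM in sgControl and 20.1 and 26.2 in sgMETTL13. In each assay both sgMETTL13 libraries lay below both sgControl libraries. The footprint difference was -1.41 (SE 0.164) and the mRNA difference -1.43 (SE 0.412) on the log2 scale, so the footprints per remaining METTL13 mRNA differed by 0.02 (SE 0.403). In bulk libraries, fewer cells with METTL13 mRNA and less of it per cell cannot be told apart.

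The 5′ ends of 8 genes described below are shown here because the TOP motif sits there. Each line gives the RefSeq gene start (GRCh38.p14) with 10 bases before it and 15 bases from it, 5′ to 3′ on the gene's strand. Capitals mark a TOP-like start, defined as C at the annotated start followed by C or T for at least 5 bases in all, read on the gene's strand only. The first 3 genes carry one and belong to those with higher efficiency. RPL15 and H2BC4 had higher efficiency without one at this start, and FOXD1, IER5L and UBE2M belong to those with lower efficiency.
RPL31, chr2:101002279-101002303, plus strand: ccttcgcgctCTTCCTTTCCaactt
EIF3F, chr11:7987327-7987351, plus strand: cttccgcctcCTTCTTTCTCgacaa
EEF1A1, chr6:73521018-73521042, minus strand: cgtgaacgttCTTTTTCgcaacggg
RPL15, chr3:23916535-23916559, plus strand: tggggcctgctggaggagcttcacg
H2BC4, chr6:26123912-26123936, minus strand: ctttactttcgacacatttctggtg
FOXD1, chr5:73448763-73448787, minus strand: gccctctcctggactcagccctggc
IER5L, chr9:129178247-129178271, minus strand: gccggccgagactcattgctttggc
UBE2M, chr19:58558597-58558621, minus strand: gctgccgagcgagtccgaggcgctg

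No gene passed an adjusted p of 0.05 in edgeR's quasi-likelihood test over the 8 libraries (0% of 10446, smallest Benjamini-Hochberg adjusted p 0.999). At an unadjusted p below 0.05, 108 genes were higher in sgMETTL13 (1.03%) and 239 were lower (2.29%). With upper quartile factors in place of the TMM factors used here, higher genes made up 43.2% of those at an unadjusted p below 0.05, against 31.1%. DESeq2 called 5 genes, with GAGE12G higher and FOXD1, IER5L, HMGA2 and SLC30A5 lower, and limma voom with weights per library called 1, SLC30A5. The median change over all genes tested was -0.11 (quartiles -0.43 and 0.18), and 40.1% of genes had a positive change. That median was 0.005 without sgMETTL13 RNA replicate 1 and -0.105 without replicate 2, so its sign depended on which of those libraries was kept. Footprint differences had an SD over genes of 0.455 and mRNA differences one of 0.387.

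A second description took the ratios of each footprint library to each RNA library, with 0.5 counts added before the log. A gene was counted as separated where every ratio of one arm lay above every ratio of the other. By this count 697 genes were higher in sgMETTL13 (6.67%) and 863 were lower (8.26%). Among the 108 higher genes at an unadjusted p below 0.05, 105 were separated, and among the 239 lower genes 236 were. The footprint difference was larger in size than the mRNA difference in 97 of the 108 and in 216 of the 239, against 58.8% of all genes tested. The scatter of both differences shows the genes of smallest p above and below the diagonal, with mRNA differences of -0.22 to 0.35 for the 12 higher ones and -0.40 to 1.41 for the 12 lower ones.

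**Figure D1:**
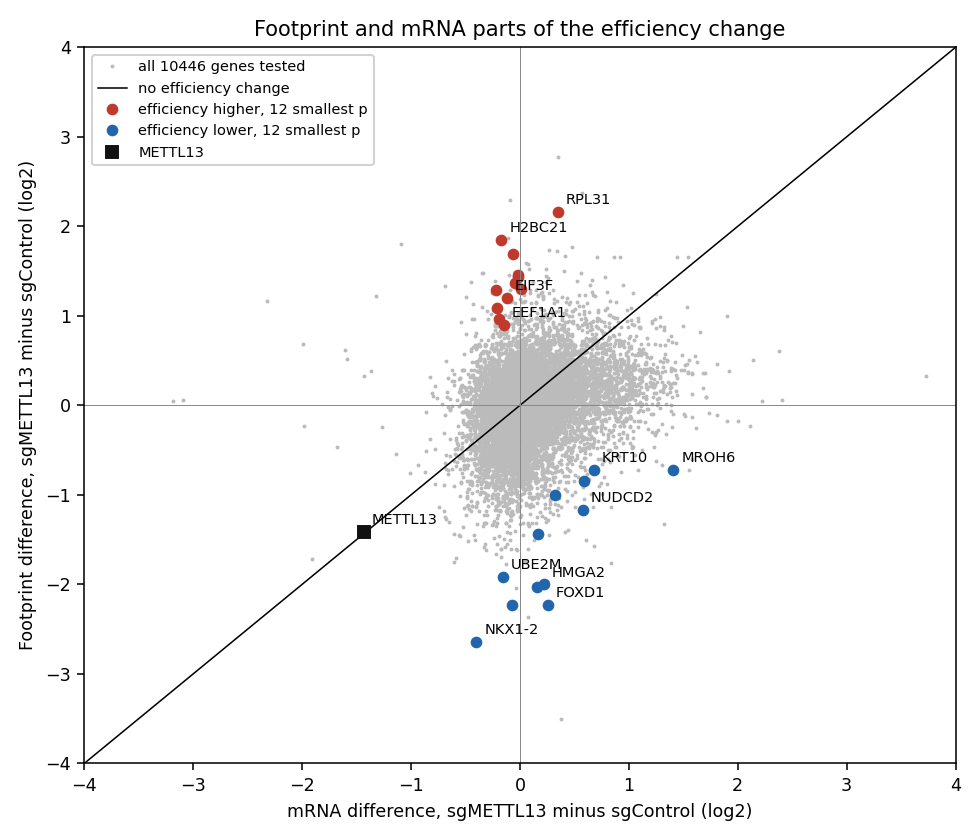
Footprint difference against mRNA difference (both sgMETTL13 minus sgControl, log2) for the 10446 genes tested. Distance above or below the diagonal is the efficiency change. The 12 genes with higher efficiency of smallest p (red) have footprint differences of 0.90 to 2.16, the 12 with lower efficiency (blue) of -0.72 to -2.64, and METTL13 (black square) lies on the diagonal at -1.43 and -1.41.

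The genes described next are the 12 of smallest unadjusted p in each direction among separated genes with a mean of at least 5 CPM in each assay. Their adjusted p was 0.999 over the 8 libraries, so none passed. The 24 were chosen from these same 8 libraries, so their values in fits that leave out 1 library are no independent support. With 1 RNA library left in the sgMETTL13 arm, that library is assumed to vary like the other groups.

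EEF1A1, the main form of eEF1A and the substrate of METTL13, had 23.7 and 19.99 footprint CPM in sgControl and 41.4 and 40.5 in sgMETTL13. Its mRNA stood at 10789 and 9322 CPM in sgControl and 8858 and 9265 in sgMETTL13. The footprint libraries did not overlap between arms, and the mRNA libraries did not either, with sgControl slightly above sgMETTL13. The efficiency change was 1.05 (SE 0.278, unadjusted p = 0.0039), made of a footprint difference of 0.90 and a mRNA difference of -0.15. EEF1A2, the form known from muscle and neurons, had a change of -0.55 (SE 0.404), with 46.9 and 54.8 footprint CPM in sgControl and 36.5 and 32.6 in sgMETTL13.

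RPL31, a large-subunit ribosomal protein, had 5.20 and 5.47 footprint CPM in sgControl and 24.1 and 23.7 in sgMETTL13. Its mRNA level was 798 and 468 CPM in sgControl and 662 and 952 in sgMETTL13. Footprints were far apart between arms, while mRNA overlapped. The efficiency change was 1.81 (SE 0.443, unadjusted p = 0.0025). RPL15 (footprints 3.75 and 5.12 against 10.6 and 10.97 CPM) and RPL23A (3.02 and 2.73 against 6.09 and 9.65 CPM) had changes of 1.28 (SE 0.366) and 1.46 (SE 0.423), on mRNA differences of 0.01 and -0.02. EIF3F, a subunit of the initiation factor eIF3 that recruits the small subunit to mRNA, had 26.6 and 21.4 footprint CPM in sgControl and 51.5 and 59.5 in sgMETTL13. Its mRNA level was 331 and 325 CPM in sgControl and 266 and 337 in sgMETTL13, and its change was 1.33 (SE 0.341, unadjusted p = 0.0034). In these 4 genes the difference lay in footprints, with mRNA overlapping between arms.

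A pair of histone H2B genes stood among the same 12. H2BC4 had 122 and 73.5 footprint CPM in sgControl and 237 and 271 in sgMETTL13, on 8.50 and 10.9 mRNA CPM against 10.4 and 8.32. H2BC21 had 6.40 and 3.59 footprint CPM against 13.9 and 23.6, on 16.5 and 20.04 mRNA CPM against 16.4 and 16.2. Their changes were 1.42 (SE 0.426) and 2.05 (SE 0.516). Most histone mRNAs of S phase lack a poly(A) tail, so a poly(A) library holds only the part of them that carries one.

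The other higher genes were SLC7A6, an amino acid transporter of the plasma membrane (change 1.5, SE 0.446), COQ10A, a coenzyme Q binding protein of mitochondria (1.52, SE 0.396), TCTN3, a tectonic protein of the ciliary transition zone (1.31, SE 0.399), SORD, sorbitol dehydrogenase (1.17, SE 0.358), and GAGE2A, a cancer-testis antigen (1.75, SE 0.556). Footprint CPM in sgControl against sgMETTL13 were 4.47 and 2.73 against 8.63 and 11.8 for SLC7A6 and 18.5 and 14.3 against 32.3 and 32.6 for SORD. Footprints did not overlap between arms in any of these 5, and the mRNA differences were between -0.22 and -0.02.

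Among the genes with lower efficiency, the smallest p belonged to a transcription factor. FOXD1, a forkhead transcription factor on chromosome 5 at 73446266 to 73448777, had 81.1 and 143 footprint CPM in sgControl and 29.4 and 17.7 in sgMETTL13. Its mRNA level was 42.5 and 42.7 CPM in sgControl and 46.1 and 56.0 in sgMETTL13. Footprints were lower and mRNA higher in both sgMETTL13 libraries, with no overlap in either assay. The change was -2.51 (SE 0.490, unadjusted p = 0.00056), and it ran from -2.93 to -2.05 over the alternatives. NKX1-2, a homeobox factor, had 17.9 and 29.4 footprint CPM against 4.26 and 3.18, on 23.4 and 26.9 mRNA CPM against 21.6 and 16.6, and a change of -2.26 (SE 0.475).

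IER5L, an immediate early response protein, had 72.3 and 120 footprint CPM in sgControl and 19.9 and 20.9 in sgMETTL13. Its mRNA level was 55.6 and 61.3 CPM in sgControl and 44.0 and 67.1 in sgMETTL13, so mRNA overlapped and footprints did not. The change was -2.16 (SE 0.451, unadjusted p = 0.00089). HMGA2, a chromatin protein of embryonic and tumour cells, had 95.7 and 149 footprint CPM in sgControl and 31.3 and 29.5 in sgMETTL13. Its mRNA stood at 290 and 296 CPM in sgControl and at 450 and 235 in sgMETTL13, the latter pair on both sides of the former. Its change was -2.23 (SE 0.479), -1.76 without sgMETTL13 RNA replicate 1 and -2.62 without replicate 2.

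UBE2M, the enzyme that passes NEDD8 to cullins, had 48.3 and 71.1 footprint CPM in sgControl and 15.1 and 16.1 in sgMETTL13, on 242 and 277 mRNA CPM against 188 and 276. Its change was -1.77 (SE 0.406). CDKN2B, the CDK inhibitor p15, had 17.6 and 17.3 footprint CPM against 6.09 and 6.80, on 63.7 and 76.1 mRNA CPM against 84.0 and 73.7, and a change of -1.61 (SE 0.356). INKA1, an inhibitor of the kinase PAK4, had 16.8 and 25.6 footprint CPM against 5.79 and 4.39 and a change of -2.21 (SE 0.528). In all 3 the footprints were separate between arms and the mRNA difference was between -0.16 and 0.17.

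In 4 lower genes the mRNA difference was above 0.5. KRT10, a keratin, had 206 and 257 footprint CPM in sgControl and 125 and 156 in sgMETTL13, with 31.8 and 24.6 mRNA CPM against 44.3 and 46.2, so both assays were separate between arms in opposite directions. Its change of -1.40 (SE 0.359) was made of -0.72 in footprints and 0.68 in mRNA. NUDCD2 (change -1.77, SE 0.436) and RSRP1 (-1.44, SE 0.416) had mRNA differences of 0.58 and 0.59. MROH6 had a change of -2.14 (SE 0.631), of which 1.41 was mRNA, and of -2.69 without sgMETTL13 RNA replicate 1 and -1.35 without replicate 2. That mRNA stood at 16.4 and 9.87 CPM in sgControl and 20.4 and 49.5 in sgMETTL13. LRATD2 completed the 12 at -1.33 (SE 0.400), with 8.94 and 12.6 footprint CPM against 5.18 and 5.48.

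**Figure D2:**
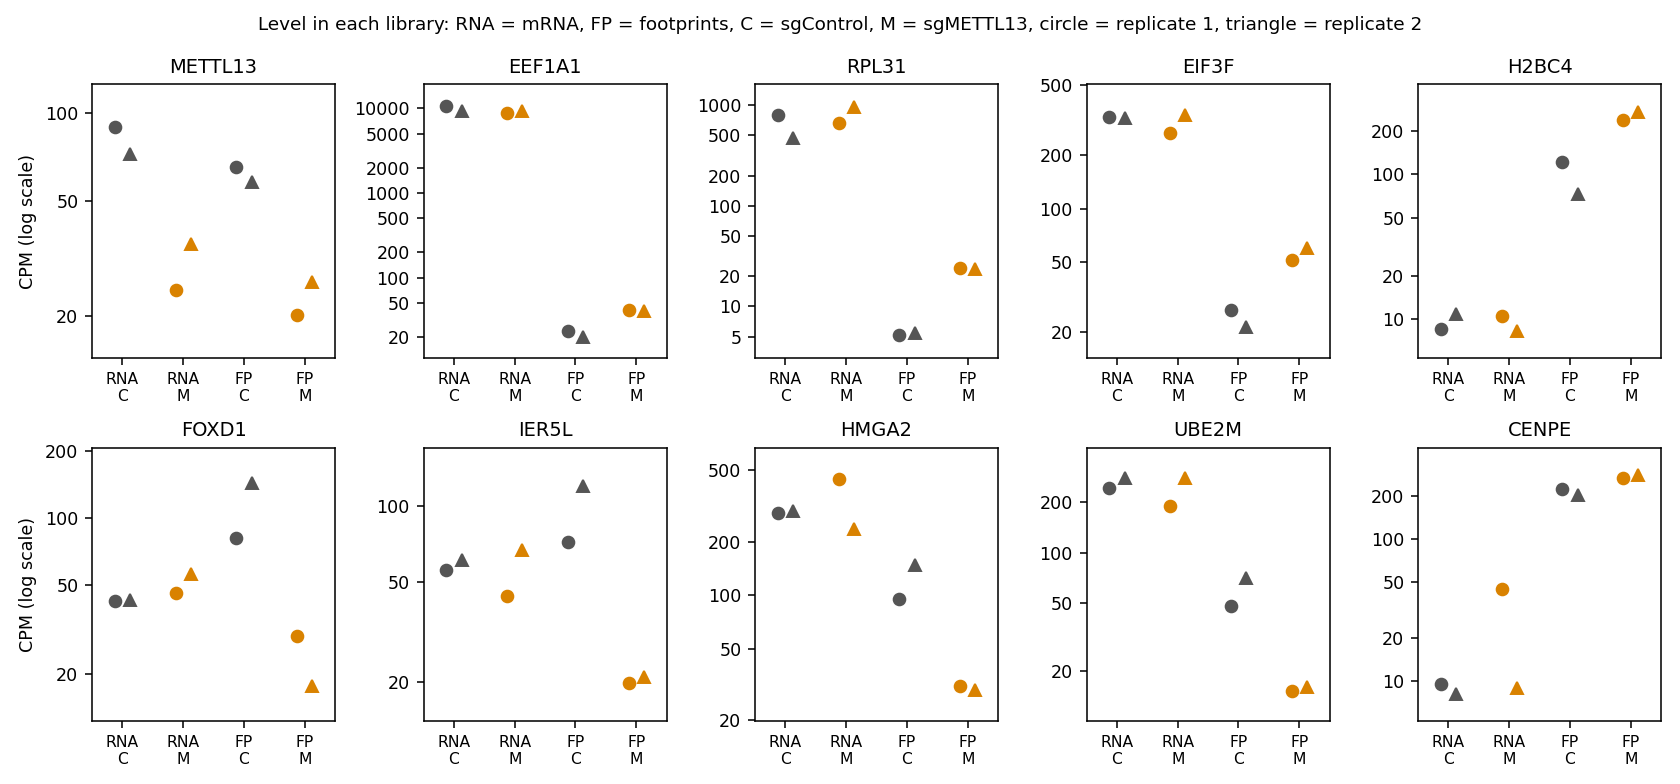
Level of 10 genes in each of the 8 libraries, in CPM on a log axis that differs between panels. RNA is RNA-seq, FP footprints, C sgControl (grey), M sgMETTL13 (orange), circles replicate 1 and triangles replicate 2. METTL13 is low in sgMETTL13 in both assays, footprints but not mRNA are separate between arms in RPL31, EIF3F, H2BC4, IER5L and UBE2M, and CENPE mRNA is high in sgMETTL13 replicate 1 alone, at 44.1 CPM.

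Outside these 24, the genes that another tool called were GAGE12G and SLC30A5. SLC30A5, a zinc transporter of the secretory pathway, had 3.62 and 6.66 footprint CPM in sgControl and 0.507 and 0.329 in sgMETTL13, with 56.3 and 53.2 mRNA CPM against 92.6 and 50.2. Its change was -3.96 (SE 0.671), and both sgMETTL13 footprint libraries were far below those of sgControl, at few counts. GAGE12G had 32.6 and 25.6 footprint CPM against 138 and 150, on 1.88 and 2.67 mRNA CPM against 2.65 and 1.61, and a change of 2.38 (SE 0.458). MYC, the growth regulator induced by serum, had 665 and 698 footprint CPM in sgControl and 761 and 766 in sgMETTL13. Its mRNA level was 652 and 1107 CPM in sgControl and 677 and 862 in sgMETTL13, and its change was 0.36 (SE 0.385).

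Ribosomal proteins had a median change of 0.38 over the 72 tested, with 53 above 0, against a median of -0.11 over all genes. Of the 72, 10 were higher at an unadjusted p below 0.05 (1.03% of all genes were) and none lower, and 20 were separated higher (6.67% of all genes were) and none lower. Large-subunit proteins had a median of 0.42 over 44 genes (8 higher at an unadjusted p below 0.05, 17 separated higher), and small-subunit proteins had one of 0.33 over 28 (2 and 3). Per library, the median footprint deviation of large-subunit proteins from the mean of the 4 footprint libraries was -0.20 and -0.24 in sgControl and 0.12 and 0.36 in sgMETTL13. Their median mRNA deviation was 0.09 and -0.13 in sgControl and -0.17 and 0.26 in sgMETTL13. Footprints were thus higher in both sgMETTL13 libraries, and mRNA overlapped between arms. Without sgMETTL13 RNA replicate 1 the medians were 0.29 for the large and 0.05 for the small subunit, and without replicate 2 they were 0.55 and 0.47. The median over all genes was 0.005 and -0.105 in those fits in turn.

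Within the group the changes were uneven. RPL12, of the stalk base, had 10.8 and 7.35 footprint CPM in sgControl and 18.2 and 19.3 in sgMETTL13 and a change of 1.22 (SE 0.392). RPS4X, an X-linked small-subunit protein, had 229 and 181 footprint CPM against 335 and 372, on 876 and 632 mRNA CPM against 730 and 597, and a change of 0.97 (SE 0.353). In both genes the footprints were separate between arms. The lowest value among large-subunit proteins was -0.70, and 19 of the 72 genes were at or below 0.

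The TOP-like start defined above was found at 4.04% of the 27305 RefSeq gene starts and at 40 of 56 ribosomal protein genes with an entry (71.4%). It was found at 441 of 8607 other genes tested (5.12%). Ribosomal protein genes with it had a median change of 0.34 and those with another start 0.49 (16 genes). Other genes with it had a median of -0.07 and those with another start -0.12 (8166 genes). Without sgMETTL13 RNA replicate 1 these medians were, in the same order, 0.17, 0.35, 0.03 and 0.01. Without replicate 2 they were 0.44, 0.78, -0.10 and -0.11. Among these other genes with a TOP-like start, 6 were higher and 7 lower at an unadjusted p below 0.05. Of the genes of smallest p with an entry and outside chromosome 8, 3 of 10 higher and 0 of 9 lower carried it. Over all genes tested with an entry, 481 of 8663 (5.55%) did. MROH6 and LRATD2, both lower, lie on chromosome 8 and were left out of this count. The search read only the annotated start, and start sites used in T3M4 were not measured.

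Footprints per mRNA over all 8 libraries, taken as the log2 ratio of CPM, were low for many ribosomal proteins. The ratio was -8.62 for RPL23A, -8.32 for EEF1A1, -7.36 for RPL15 and -5.94 for RPL31, against a median of -0.25 over all genes. In the lowest 10% of genes by this ratio lay 38 of the 72 ribosomal proteins, with a median change of 0.53 and 9 of the 10 genes at an unadjusted p below 0.05. The 34 above it had a median of 0.18, which was -0.00 without sgMETTL13 RNA replicate 1 and 0.33 without replicate 2. Of the 12 higher genes of smallest p, 7 lay in the lowest 10%, and of the 12 lower, 3. RefSeq lists pseudogenes with the same root name for all 72 ribosomal proteins, 95 for RPL23A, 64 for RPL31 and 50 for EEF1A1. How reads matching several places were counted is not given in the sources used here, so the part of pseudogene copies in these values was not tested.

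Among genes other than ribosomal proteins, the median change went from 0.14 in the 10% of genes with the fewest footprints per mRNA to -0.45 in the 10% with the most. Without sgMETTL13 RNA replicate 1 that order was not seen: in the 10% of genes with the most the median was then 0.23, against -0.74 without replicate 2. In the 10% with the fewest the medians were 0.00 and 0.30. The ratio and the change came from the same libraries, so this is a description only.

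**Figure D3:**
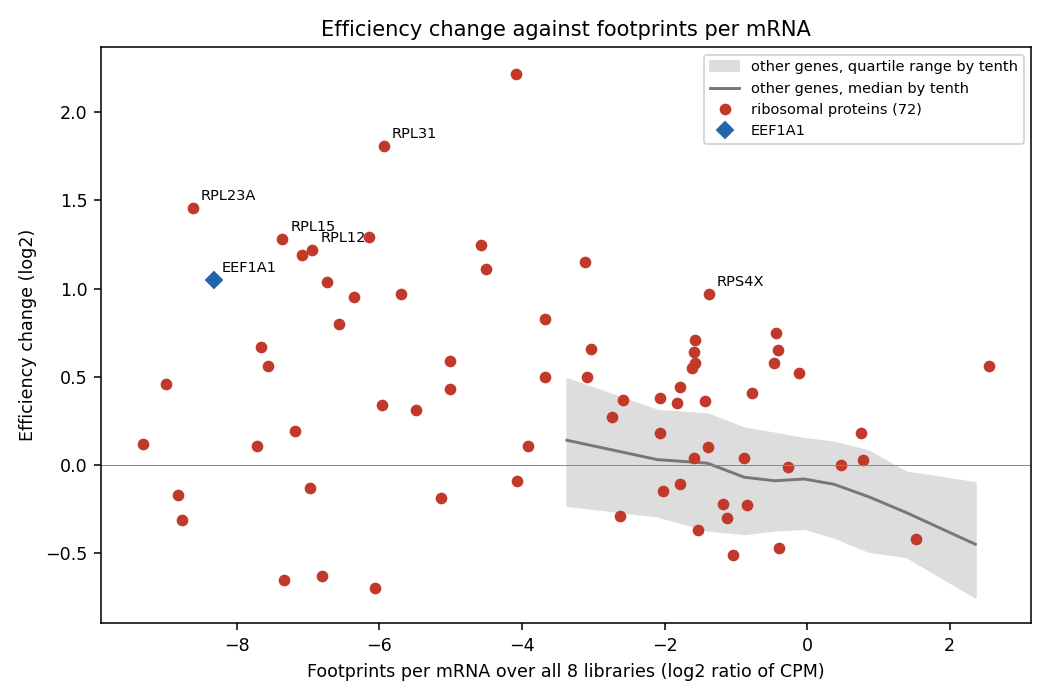
Efficiency change (log2) against footprints per mRNA over all 8 libraries (log2 ratio of CPM). Red points are the 72 ribosomal proteins, the blue diamond is EEF1A1, and the grey line and band are the median and quartiles of other genes in 10 equal groups by ratio. The labelled RPL31, RPL23A, RPL15 and RPL12 lie at 1.81, 1.46, 1.28 and 1.22, left of the grey band.

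Other parts of the translation machinery had smaller medians. Of 39 initiation factors, 2 were higher at an unadjusted p below 0.05 (1.03% of all genes were) and none lower, 8 were separated higher (6.67% of all genes were) and 1 lower, and the median was 0.09 (0.24 without sgMETTL13 RNA replicate 1 and 0.21 without replicate 2). Beside EIF3F the second was EIF3L, also of eIF3, with 256 and 200 footprint CPM in sgControl and 318 and 388 in sgMETTL13 and a change of 0.88 (SE 0.322). PABPC1, the cytoplasmic poly(A) binding protein, had a change of 0.78 (SE 0.354), with footprints of 824 and 826 against 982 and 1105 CPM and mRNA of 2362 and 3779 against 2432 and 2089 CPM. Among 14 elongation factors EEF1A1 was the only one at an unadjusted p below 0.05, and the median was 0.10, which became -0.19 without sgMETTL13 RNA replicate 1 and 0.15 without replicate 2. No eEF1A methyltransferase (0 of 5, METTL13 among them) and no aminoacyl-tRNA synthetase (0 of 20) reached it, with medians of 0.08 (0.13 and 0.30 without those libraries in turn) and 0.13 (0.19 and 0.05). Mitochondrial ribosomal proteins had a median of -0.10 over 70 genes, against -0.11 over all genes, and the 2 lower at an unadjusted p below 0.05 were a share near the 2.29% of all genes. Their median was -0.09 without sgMETTL13 RNA replicate 1 and -0.04 without replicate 2, against 0.005 and -0.105 over all genes.

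Of 28 replication-dependent histone genes tested, 4 were higher and 2 lower at an unadjusted p below 0.05 (1.03% and 2.29% of all genes were), and the median was 0.29. The higher ones included H2BC21 and H2BC4, described above. The list's median was -0.07 without sgMETTL13 RNA replicate 1 and 0.60 without replicate 2. Its direction therefore depended on which of those libraries was kept.

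All 9 GAGE genes tested had a change above 0, with a median of 1.01, and 3 were higher at an unadjusted p below 0.05 (1.03% of all genes were). The median was 0.67 without sgMETTL13 RNA replicate 1 and 1.62 without replicate 2. GAGE genes are near-identical copies on the X chromosome, so their counts may share reads, which was not tested. They are therefore not taken as 9 separate measurements. Footprints of GAGE1 were 115 and 84.1 CPM in sgControl and 266 and 337 in sgMETTL13. Those of GAGE12E were 115 and 79.1 against 271 and 347, near those of GAGE1. Their mRNA differed between copies: GAGE1 had 39.5 and 43.3 CPM in sgControl and 60.2 and 26.2 in sgMETTL13, and GAGE12E 4.60 and 4.38 against 7.21 and 18.9. The efficiency changes were accordingly 1.54 (SE 0.529) and 0.13 (SE 0.591).

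Targets of p53 had a median of -0.46 over 17 genes, with 3 lower at an unadjusted p below 0.05 (CDKN1A, AEN and TP53INP1, against 2.29% of all genes), 5 separated lower (8.26% of all genes) and none higher by either count. TP53INP1 lay outside the rule for naming and was chosen after its value was seen. CDKN1A, the CDK inhibitor p21, had 38.5 and 52.3 footprint CPM in sgControl and 17.2 and 19.6 in sgMETTL13, on 140 and 178 mRNA CPM against 106 and 164. Its change was -1.06 (SE 0.420), and only its footprints were separate between arms. AEN, a nuclease induced by p53, had 70.6 and 95.2 footprint CPM against 43.6 and 38.6, on 109 and 109 mRNA CPM against 92.7 and 126, and a change of -1.01 (SE 0.372). PHLDA3, an inhibitor of AKT, had 13.1 and 15.0 footprint CPM against 7.21 and 7.79 and a change of -0.85 (SE 0.412). The list as a whole had a median footprint difference of -0.03 and a median mRNA difference of 0.12. Its median efficiency change was -0.36 without sgMETTL13 RNA replicate 1 and -0.70 without replicate 2, and stayed below 0 in every alternative run, from -0.70 to -0.33.

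Homeobox, forkhead and SOX transcription factors had a median of -0.31 over 30 genes, with 5 lower and 1 higher at an unadjusted p below 0.05 (2.29% and 1.03% of all genes were) and 9 separated lower and 1 higher (8.26% and 6.67% of all genes were). The median was -0.48 without sgMETTL13 RNA replicate 1 and -0.34 without replicate 2. The lower ones were FOXD1, NKX1-2, IRX3, SOX12 and HOXB7 and the higher one HOXB9, of which both HOX genes lay outside the rule for naming. Some of its members were known to be low from earlier results of these data when the list was drawn up. Beside FOXD1 and NKX1-2, IRX3 had 44.8 and 73.0 footprint CPM in sgControl and 19.5 and 16.8 in sgMETTL13 and a change of -1.53 (SE 0.480). SOX12 had 26.1 and 38.8 footprint CPM against 12.2 and 8.77 and a change of -1.45 (SE 0.494). Their mRNA overlapped between arms, with a difference of -0.17 in each.

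Immediate early genes, which serum induces soon after its return, had values of both signs. Of 21 tested, 1 was higher and 2 lower at an unadjusted p below 0.05 (1.03% and 2.29% of all genes were). The median was 0.22, but -0.02 without sgMETTL13 RNA replicate 1 and 0.26 without replicate 2. IER2 had 140 and 204 footprint CPM in sgControl and 87.2 and 80.4 in sgMETTL13 and a change of -1.21 (SE 0.441). IER5 had 88.2 and 124 against 63.6 and 54.8 and a change of -1.34 (SE 0.429). NR4A2, an orphan nuclear receptor, had 7.49 and 3.76 against 14.4 and 16.1 and a change of 1.18 (SE 0.515). CCN1, a secreted matrix protein, had higher footprints (79.6 and 72.1 against 159 and 197 CPM) and higher mRNA (215 and 250 against 348 and 393 CPM), and its change was 0.56 (SE 0.324). CCND1, cyclin D1, a product of ERK signalling, had 368 and 470 footprint CPM in sgControl and 261 and 250 in sgMETTL13, on 714 and 735 mRNA CPM against 709 and 764, and a change of -0.74 (SE 0.302). Of 16 ERK output genes, CCND1 alone was lower at an unadjusted p below 0.05 and none was higher (2.29% and 1.03% of all genes were). Their median was 0.02 (0.06 without sgMETTL13 RNA replicate 1 and -0.01 without replicate 2), with 8 above 0.

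Stress-translated mRNAs with upstream open reading frames had a median of -0.27 over 14 genes (0.09 without sgMETTL13 RNA replicate 1 and -0.26 without replicate 2), and none reached an unadjusted p below 0.05. ATF4 targets had a median of -0.03 over 23 genes (-0.04 and 0.07). PSAT1 and PSPH, enzymes of serine synthesis in that list, had changes of 0.68 (SE 0.368) and 0.57 (SE 0.319) at higher footprints and mRNA. PSAT1 mRNA stood at 506.5 and 380.5 CPM in sgControl and at 671.5 and 539.5 in sgMETTL13. PSPH mRNA stood at 91.1 and 87.5 CPM in sgControl and at 104 and 107 in sgMETTL13. Extracellular matrix genes had a median of -0.14 over 23 genes, -0.42 without replicate 1 and 0.15 without replicate 2. Medians of oxidative phosphorylation (0.08), proteasome (0.03), cholesterol synthesis (0.03) and G1/S genes (0.03) lay near 0 over all libraries and between 0.01 and 0.23 without either, with 0, 0, 1 and 0 members at an unadjusted p below 0.05, the 1 being HSD17B7, a sterol enzyme outside the rule for naming.

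**Figure D4:**
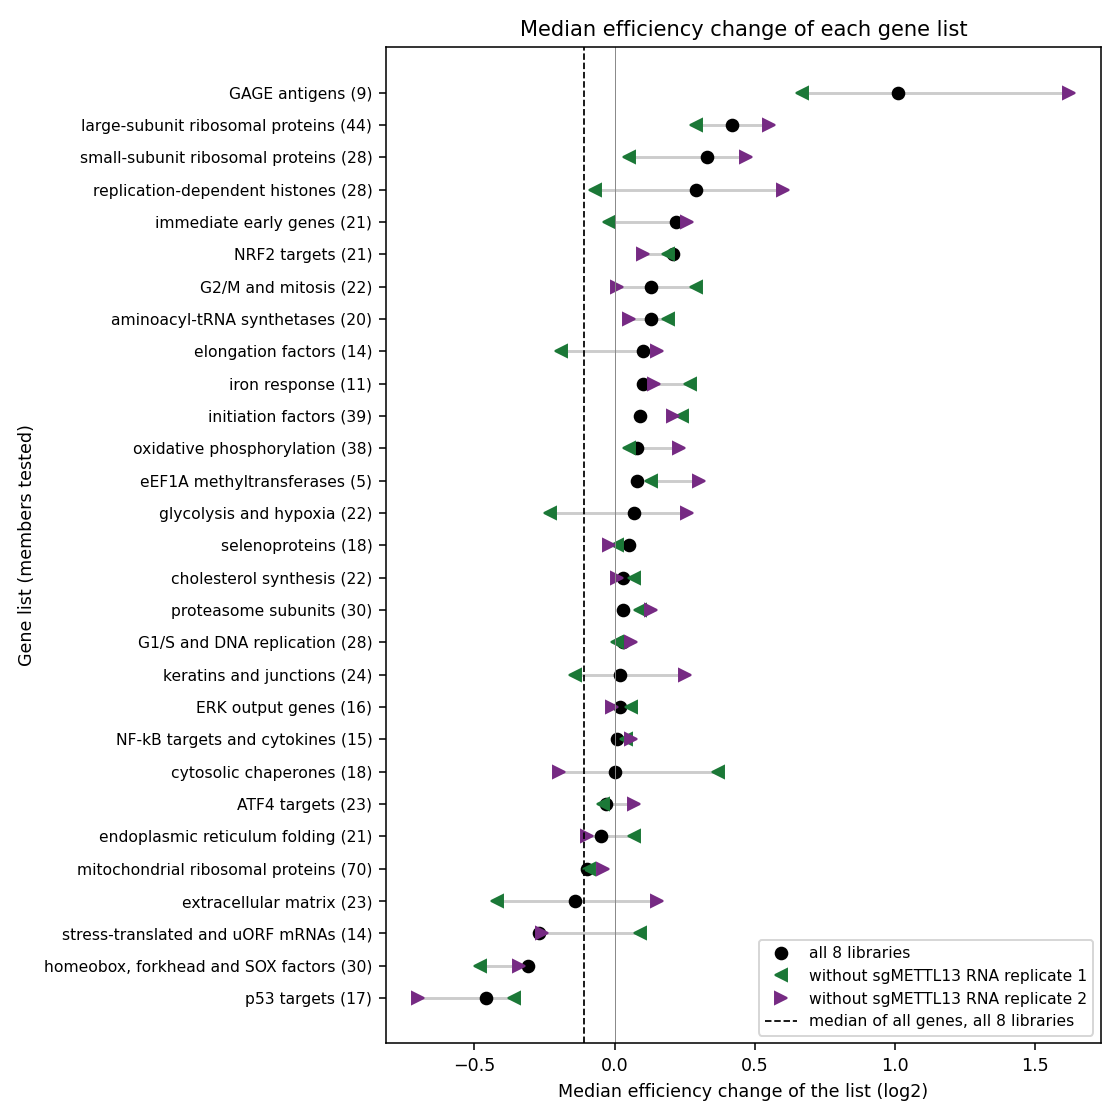
Median efficiency change (log2) of the 29 gene lists over all 8 libraries (black), without sgMETTL13 RNA replicate 1 (green) and without replicate 2 (purple), with the number of members tested in parentheses. The dashed line is the median of all genes over all 8 libraries, -0.11. Both subunits of the ribosome and the GAGE list stay above 0 in all 3 fits, as do others such as initiation factors, aminoacyl-tRNA synthetases and NRF2 targets. The p53 and homeobox lists stay below 0 in all 3 fits, as do mitochondrial ribosomal proteins. Histones, extracellular matrix, immediate early genes and elongation factors are among the lists that cross 0.

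Leaving out 1 sgMETTL13 RNA library changed the calls more than any other setting. Without replicate 1, 171 genes were called higher at an adjusted p below 0.05 in edgeR's quasi-likelihood test (1.63% of 10463) and 329 lower (3.14%). Without replicate 2, 126 were called higher (1.2% of 10464) and 1258 lower (12%). Both fits called 89 genes, and in 51 of them the sign was opposite. Of the 38 with the same sign, 15 were higher and 23 lower. The biological coefficient of variation was 0.338 in RNA-seq and 0.0983 in footprints, and 0.261 in the joint model.

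In 4 genes, chosen after their values were seen, mRNA was high in sgMETTL13 replicate 1 alone. CENPE, a mitotic kinesin, had 9.57 and 8.17 mRNA CPM in sgControl and 44.1 and 9.05 in sgMETTL13, on 224 and 202 footprint CPM against 268 and 279. Its change was -1.22 (SE 0.782) over all libraries, 0.27 without replicate 1 and -1.94 without replicate 2. CDK1, the mitotic kinase, had 56.0 and 49.9 mRNA CPM against 155 and 50.5, and its change was -0.86 (SE 0.620), 0.09 and -1.46. EIF3J, a loosely bound eIF3 subunit, and PSMD12, a proteasome lid subunit, had 194 and 226 mRNA CPM in replicate 1 against 54.3 and 76.9 in replicate 2.

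The difference between the sgMETTL13 RNA libraries moved with gene span, the distance from the first to the last base of the RefSeq gene. In the 20% of genes with the shortest span the median mRNA deviation was -0.28 in replicate 1 and 0.21 in replicate 2, and in the longest 20% they were 0.23 and -0.22. Over 10446 genes Spearman's rho between span and the difference of replicate 2 minus 1 was -0.38 in sgMETTL13 RNA-seq, against 0.01 in sgControl RNA-seq, -0.11 in sgControl footprints and -0.07 in sgMETTL13 footprints. The genes share these libraries, so rho is a description. With all libraries the median efficiency change was -0.15 in the shortest 20% and -0.06 in the longest. It went from -0.32 to 0.22 without replicate 1 and from 0.07 to -0.20 without replicate 2.

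**Figure D5:**
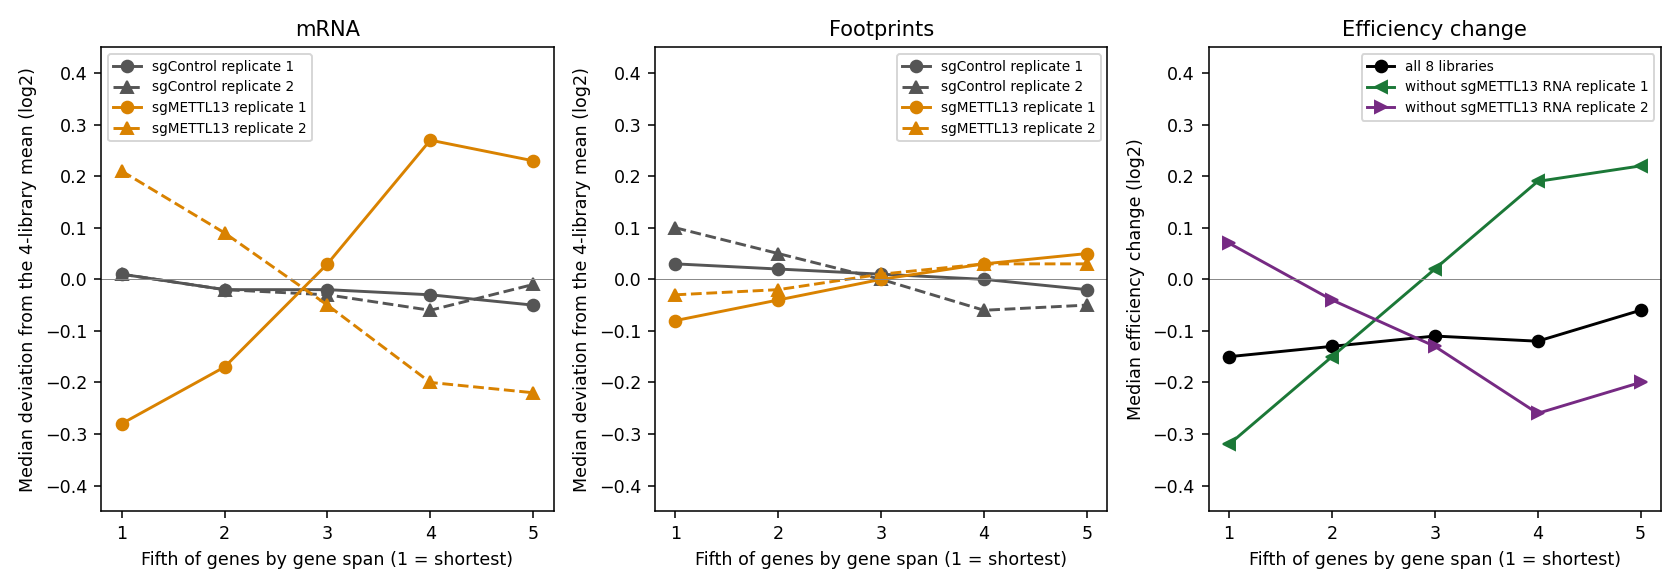
Median deviation of each library from the mean of its assay (left, mRNA; middle, footprints) and median efficiency change (right), all log2, for 5 equal groups of genes by gene span. The sgMETTL13 RNA libraries cross, from -0.28 to 0.23 and from 0.21 to -0.22, the other 6 libraries stay within 0.10 of 0, and the efficiency change over all 8 libraries runs from -0.15 to -0.06.

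The change also followed the mRNA level to a smaller extent. The median was -0.21 in the 20% of genes with the lowest mean mRNA and 0.01 in the 20% with the highest. Without sgMETTL13 RNA replicate 1 the order turned, with 0.03 and -0.07, and without replicate 2 the values were -0.29 and 0.14.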

How the data were processed

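RNA-seq and ribosome profiling of T3M4 cells gave 8 libraries in 4 groups of 2, assigned by the labels. The authors deposited 1 table of raw counts per gene symbol. The build was hg38, and Bowtie 1.2.2, HISAT2 2.0.4, cutadapt 1.18, UMI-tools and featureCounts were used in an order not given, per the submitters' processing notes. Whether reads matching several places were counted, whether footprints were deduplicated and which strand setting was used are not given in the sources used here.

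The interaction of guide and assay was tested over all 8 libraries with the quasi-likelihood F test of edgeR 4.0.16 under R 4.3.3. TMM factors and edgeR's filterByExpr were applied to each assay on its own. Benjamini-Hochberg adjustment ran over all 10446 genes, with a threshold of 0.05. The fit was run on simulated counts, where recovery of the set changes was required only at a dispersion below that of these data. Levels are TMM-normalised CPM, and an SE is the change over the square root of F. Differences within an assay come from fits of that assay alone, so they need not add up to the change exactly. With 2 libraries per group, intervals rest on few degrees of freedom.

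Named were METTL13, EEF1A1, EEF1A2 and MYC, the 12 genes of smallest p in each direction that were separated at a mean of at least 5 CPM in each assay, up to 4 members per list and genes called by another tool. Some named genes are left out here. The members and lists were chosen with earlier results of these data known. DESeq2 1.42.0, limma 3.58.1 (voom), other factors and filters, a replicate block and leaving out each library were the alternatives, and limma trend was added after seeing the data. Starts and coordinates are from RefSeq (GRCh38.p14): 8663 genes tested had a start (82.9%), and 10443 matched a gene. Protein features were not analysed here.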

Additional observations from a re-analysis of the deposited data

How the results depend on the processing

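The 0 calls over all libraries became 5 with DESeq2 and 1 with voom weights per library, and ranged from 0 to 1384 with 1 library left out. The 108 higher genes at an unadjusted p below 0.05 became 163 without the expression filter and 48 at a mean of at least 10 CPM, and ranged from 38 to 1354 with 1 library left out. The 239 lower genes became 158 with voom, 132 with weights per library, 136 with weights per assay and 118 at a mean of at least 10 CPM, and ranged from 40 to 2265. The cause was not tested, except that the last filter tests fewer genes. The 24 genes of smallest p kept their direction in all 495 values over 21 settings. They had been chosen as separated in these same libraries, so this outcome was largely set by the choice and is a description only. With 1 library left out the sign turned for METTL13 (-0.29 to 0.30), MYC (-0.07 to 0.67), EEF1AKMT2 (-0.55 to 0.16), EEF1AKMT4 (-0.24 to 0.42), FOSL1 (-0.01 to 0.91), CENPE (-1.94 to 0.27), CDK1 (-1.46 to 0.09), GAGE12E (-0.47 to 0.99) and TJP1 (-0.12 to 1.43).

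The replicate numbers were not shown to pair libraries: replicate differences in RNA-seq and footprints correlated at 0.16 in sgControl and 0.0156 in sgMETTL13, while those of the 2 arms correlated at 0.418 in RNA-seq and -0.167 in footprints, and sgMETTL13 RNA-seq with sgControl footprints at 0.267. A replicate block gave 0 calls, with 118 higher and 247 lower genes at an unadjusted p below 0.05, and a block within each arm 0 calls with 88 and 176. Depth limits genes with few footprints, such as RPL15, RPL23A and SLC30A5.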
